A study of Mus musculus with 6 samples.

Results

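The genes described here make sterols and fatty acids or control the cell's sterol level. They were chosen by symbol from a list of 39 genes, of which 30 had a named probe among the values used here. Of these, 28 were tested, among 10304 tested genes in all, because a probe of theirs passed the 40th percentile of probe brightness on 3 or more of the 6 arrays. Each gene was represented by its brightest kept probe, the one with the highest mean over the arrays. RNA came from splenic B cells of mice, 3 arrays of the TRAF3KO group (TRAF3-/- premalignant B cells) and 3 of the control group (normal B cells). TRAF3 is a signalling adaptor that holds back the non-canonical NF-kB pathway and with it the survival of B cells. The sources used here give neither the strain and age of the mice nor the way in which Traf3 was deleted. They do not say whether each array held cells of a separate mouse. The p-values thus measure only how far these samples spread, and part of that spread may be technical. Xist and Y-linked genes marked both sexes in each group, as given below, so each group held cells of more than 1 mouse. Traf3 was not analysed here, so these values give no check of the knockout. Of 7 tested B cell markers, 1 fell (Fcrla, -0.32 ± 0.06 as log2 difference ± SE, adjusted p = 0.0106) and 6 were not called, with 5 of 7 differences below 0. Cd22 differed by -0.22 ± 0.08 without overlap. The antigen receptor genes Cd79a and Cd79b, the brightest of these markers, averaged 15.98 and 16.06 (log2 intensity) in TRAF3KO cells, against 15.99 and 16.07 in control cells. Whether probes this bright could still show a difference was not tested. The dimmer Ms4a1 averaged 11.71 in TRAF3KO cells, against 11.69 in control cells, with a difference of 0.02 ± 0.09. In bulk RNA such as this, more or fewer cells expressing a gene and more or less RNA of it per cell cannot be told apart.

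Cells build cholesterol from acetyl-CoA through mevalonate, isoprenoid diphosphates, squalene and a long series of sterol intermediates. When sterol in the endoplasmic reticulum is low, SCAP escorts the SREBP transcription factors to the Golgi for cleavage, and the released factors switch on the genes of sterol synthesis (mainly SREBP-2) and of fatty acid synthesis (mainly SREBP-1c). INSIG proteins hold SCAP back when sterol is high, and the liver X receptors (LXR) respond to oxysterols by raising cholesterol export. Lymphocytes raise lipid synthesis when they grow and divide, since each division needs new membrane.

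Several enzymes of the sterol pathway were higher in TRAF3KO cells, and the fatty acid genes were not called. Calls rest on limma with Benjamini-Hochberg adjustment over all kept probes and a limit of 0.05. Of 13 tested sterol synthesis genes, 4 rose (Hmgcs1, Mvd, Fdps and Sqle) and 0 fell. Of 9 tested fatty acid genes, 0 were called, although 2 (Scd2 and Acly, both higher) had an unadjusted p under 0.05. Over all tested genes 4.44% were called, 2.3% higher and 2.14% lower. The median log2 difference, TRAF3KO minus control, was 0.28 over the sterol synthesis genes and 0.10 over the fatty acid genes, against 0.00 over all tested genes. The groups did not overlap for 7 sterol synthesis genes, all higher in TRAF3KO cells, and for 1 fatty acid gene, also higher. Over all tested genes, 11% did not overlap with TRAF3KO higher and 11.4% with TRAF3KO lower. Among all 28 tested members the groups did not overlap for 9 (22.4% of all tested genes), and 17 had a difference above 0 (50.7% of all tested genes). The difference between the lists was not tested. Without a trend of variance with brightness in the model, 0 of the 4 sterol calls remained, and without control replicate 3 the count was 2. Without TRAF3KO replicate 3 the order of the medians turned, at 0.15 for the sterol genes and 0.17 for the fatty acid genes.

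**Figure D1:**
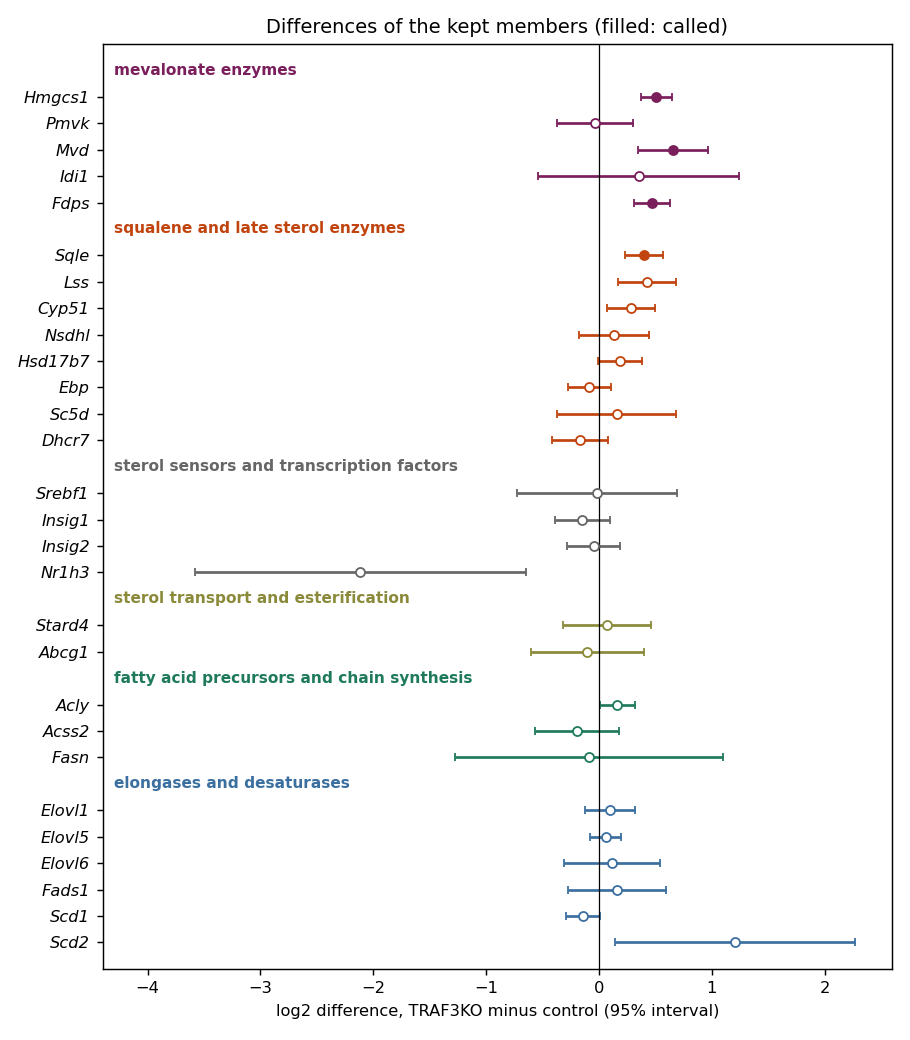
Log2 difference, TRAF3KO minus control, of the 28 tested members with its 95% interval, grouped by role; filled points were called. The 4 filled points, Hmgcs1, Mvd, Fdps and Sqle, lie between 0.40 and 0.65, while the points of the fatty acid genes are open.

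Hmgcs1 encodes the cytosolic HMG-CoA synthase, which joins acetyl-CoA and acetoacetyl-CoA into the precursor of mevalonate. It had log2 intensities of 13.81, 13.87 and 13.73 in TRAF3KO cells, against 13.31, 13.32 and 13.27 in control cells. Every TRAF3KO array lay above every control array, and the gap between the groups was wider than the spread within either. The difference was 0.51 ± 0.06 (log2 difference ± SE, as for every difference here), a 1.42-fold higher intensity (adjusted p = 0.00126). It was called without any 1 of the 6 arrays, with differences of 0.48 to 0.55. Hmgcs1 had the smallest adjusted p of the members and is a classical SREBP target. Promoters are printed for the called members that had a promoter entry, Hmgcs1 and Mvd. The called genes Fdps and Sqle had no entry, so their promoters were not searched. The RefSeq sequence of GRCm38.p6, plus strand, chr13:119690101-119690350, is the 250 bases before the annotated start. Capitals mark matches to TCACNCCAC, an SREBP-type element, and to CCAAT, the core of the NF-Y motif, on either strand (a match on the other strand reads ATTGG).
Hmgcs1: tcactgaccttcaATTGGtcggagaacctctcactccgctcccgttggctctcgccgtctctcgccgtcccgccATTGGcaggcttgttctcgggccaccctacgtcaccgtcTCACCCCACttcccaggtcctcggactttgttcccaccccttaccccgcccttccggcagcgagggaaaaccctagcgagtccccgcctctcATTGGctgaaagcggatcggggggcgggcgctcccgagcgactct
The SREBP-type match spans positions -137 to -129 from the start, and 3 CCAAT matches lie on the opposite strand. TCACNCCAC occurred in 1.05% of all 32851 promoter windows of this length and CCAAT in 33.8%, and the motifs do not overlap. Among 41 windows of 31 members, which do not include Fdps and Sqle, TCACNCCAC matched in Hmgcs1 alone and CCAAT in 23 windows. An LXR-type element, AGGTCA followed by any 4 bases and AGGTCA, searched on both strands like the others, matched in 0 of the 41 windows and in 0.0152% of all windows.

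Mvd encodes mevalonate diphosphate decarboxylase, which makes isopentenyl diphosphate. It had log2 intensities of 9.92, 10.02 and 9.99 in TRAF3KO cells, against 9.35, 9.57 and 9.03 in control cells. The groups did not overlap, and the control arrays were spread more widely than the TRAF3KO arrays. The difference was 0.65 ± 0.14 (1.57-fold, adjusted p = 0.0271), the highest among the called members. The call was kept in 1 of the 6 fits that left out an array, the one without control replicate 2. The other 5 fits gave adjusted p = 0.069 to 0.103, with differences of 0.51 (without control replicate 3) to 0.68. The Mvd promoter (RefSeq, GRCm38.p6, minus strand, chr8:122443423-122443672, in capitals the CCAAT matches) held 2 CCAAT matches and 0 TCACNCCAC matches.
Mvd: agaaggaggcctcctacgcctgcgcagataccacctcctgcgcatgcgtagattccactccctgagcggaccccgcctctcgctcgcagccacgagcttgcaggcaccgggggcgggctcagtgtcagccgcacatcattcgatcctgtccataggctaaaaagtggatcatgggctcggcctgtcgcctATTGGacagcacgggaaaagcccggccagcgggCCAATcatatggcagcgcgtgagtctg

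Fdps encodes farnesyl diphosphate synthase, whose product feeds sterols as well as protein prenylation. It had log2 intensities of 12.53, 12.58 and 12.49 in TRAF3KO cells, against 12.05, 12.13 and 12.003 in control cells. The groups were apart by more than the spread within them, with a difference of 0.47 ± 0.07 (1.38-fold, adjusted p = 0.00381). It was called without any 1 array, with differences of 0.44 to 0.50. The other tested mevalonate genes were not called. Pmvk, phosphomevalonate kinase, differed by -0.04 ± 0.15 with a 95% interval of -0.37 to 0.30, and its groups overlapped. Idi1, isopentenyl diphosphate isomerase, had a dim probe, at 5.77, 6.39 and 6.77 in TRAF3KO cells against 6.07, 5.43 and 6.38 in control cells. Its difference of 0.35 ± 0.40 had an interval of -0.54 to 1.24, which holds both 0 and the difference of Hmgcs1. Of the 7 listed mevalonate genes 3 rose, 0 fell and 2 were not called, and Acat2 and Mvk were not analysed here.

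**Figure D2:**
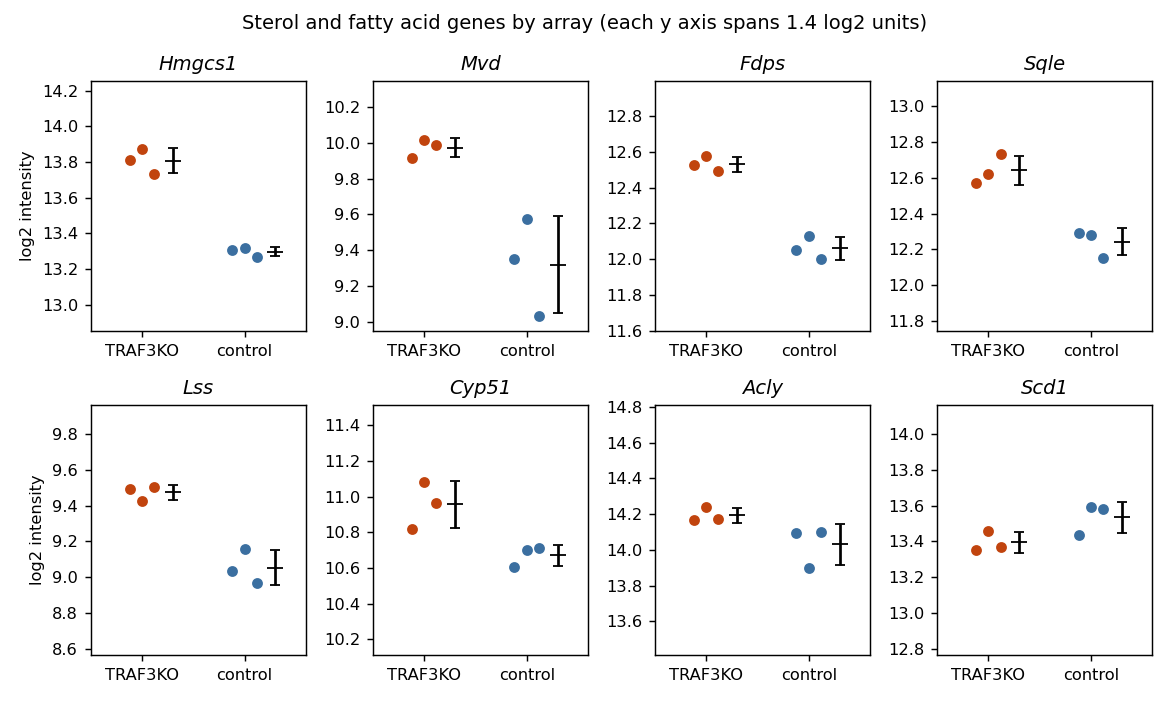
Log2 intensity of 8 members on each array, with TRAF3KO left and control right; points are arrays and bars are the mean and SD (n = 3 each). The 6 sterol genes drawn are among the 7, of 13 tested, whose groups did not overlap, so they do not stand for the whole list. Pmvk, Idi1, Nsdhl, Ebp, Sc5d and Dhcr7, whose groups overlapped, are not drawn. The groups are apart for Acly by a small gap, and they overlap for Scd1.

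From squalene onwards the median difference of the 8 tested genes was 0.17, against 0.47 for the 5 mevalonate genes. Sqle encodes squalene epoxidase, a rate-limiting enzyme of the later sterol pathway. Its brighter probe had log2 intensities of 12.57, 12.62 and 12.73 in TRAF3KO cells, against 12.29, 12.28 and 12.15 in control cells. The groups did not overlap, and the difference was 0.40 ± 0.08 (1.32-fold, adjusted p = 0.0138). Its second probe gave nearly the same difference, 0.40 ± 0.12, also without overlap, but was not called (adjusted p = 0.115). Without control replicate 3, Sqle was not called (adjusted p = 0.0573).

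Lss encodes lanosterol synthase, which closes the sterol rings. It had log2 intensities of 9.50, 9.43 and 9.51 in TRAF3KO cells, against 9.04, 9.16 and 8.97 in control cells. The groups did not overlap, and the difference of 0.42 ± 0.12 was as large as that of Sqle but missed the threshold (adjusted p = 0.0777). It was called when only probes above the 60th percentile were tested (adjusted p = 0.0417). Cyp51, lanosterol demethylase, had 10.82, 11.08 and 10.97 in TRAF3KO cells, against 10.60, 10.70 and 10.71 in control cells. Its difference was 0.28 ± 0.09 (adjusted p = 0.151), again without overlap. Hsd17b7, a sterol ketoreductase, differed by 0.19 ± 0.09 (adjusted p = 0.344), with TRAF3KO arrays at 10.70 to 10.87 and control arrays at 10.56 to 10.65.

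Not all late enzymes shared this direction. Ebp, the sterol isomerase, differed by -0.08 ± 0.09 (95% interval -0.27 to 0.11). Dhcr7, which makes the final reduction to cholesterol, differed by -0.17 ± 0.11 (interval -0.42 to 0.08). For both, the upper limit lies below the difference of Hmgcs1. Sc5d, sterol C5-desaturase, differed by 0.16 ± 0.24, with control replicate 2 the lowest of the 6 arrays. Nsdhl, a sterol dehydrogenase, had 4 kept probes that did not show 1 value. The brightest differed by 0.13 ± 0.14 and the others by 0.47 ± 0.17, -0.05 ± 0.14 and 0.22 ± 0.23, and 0 of the 4 were called. Of 8 tested genes from squalene onwards 1 was called, and Fdft1 and Tm7sf2 were not analysed here.

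**Figure D3:**
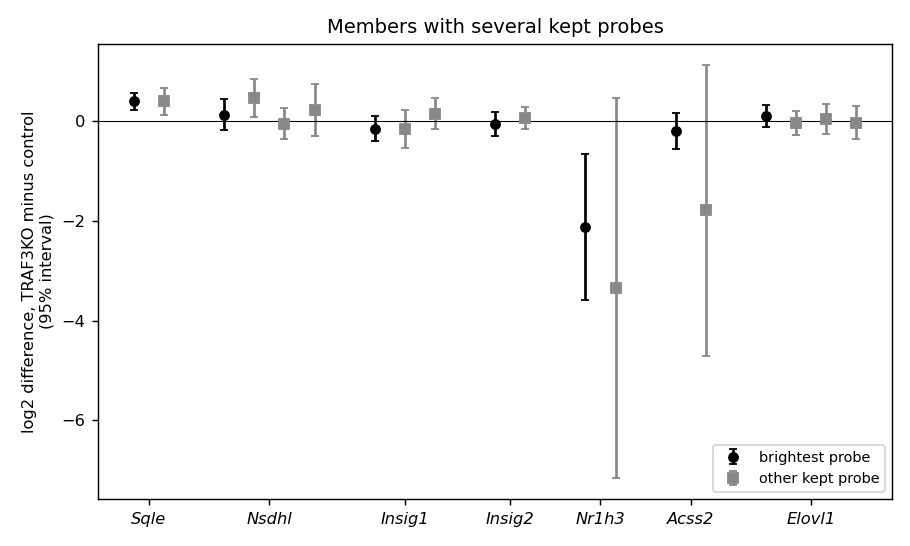
Log2 difference, TRAF3KO minus control, with its 95% interval for each kept probe of the 7 members with several kept probes; circles are the brightest probes. Both Sqle probes lie at 0.40, the Nsdhl probes range from -0.05 to 0.47, and the dim second probes of Nr1h3 and Acss2 have the widest intervals.

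The genes that sense sterol were not called. Srebf1, which encodes SREBP-1, had 7.10, 6.26 and 7.37 in TRAF3KO cells, against 7.11, 6.62 and 7.05 in control cells. The groups overlapped, and the interval of its difference, -0.73 to 0.69, is wide. A second Srebf1 probe was listed at 0 on all 6 arrays. Insig1, itself an SREBP target, had 9.41, 9.31 and 9.42 in TRAF3KO cells, against 9.51, 9.46 and 9.62 in control cells. TRAF3KO arrays were thus lower without overlap, but the difference of -0.15 ± 0.11 was not called (adjusted p = 0.564). Its other kept probes differed by -0.16 ± 0.18 and 0.15 ± 0.14. Insig2 differed by -0.05 ± 0.11. For the brightest probes of Insig1 and Insig2 the upper limits, 0.10 and 0.19, lie below the lower limit of 0.37 for Hmgcs1, but another Insig1 probe had an upper limit of 0.46. Srebf2, Scap and Nr1h2 were not analysed here.

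Nr1h3, which encodes LXR-alpha and is well known from macrophages, had the most negative difference of the members. Its brightest probe had 6.22, 3.83 and 4.97 in TRAF3KO cells, against 7.74, 5.84 and 7.79 in control cells. The groups overlapped through control replicate 2, and the difference of -2.12 ± 0.66 was not called (adjusted p = 0.125). Without control replicate 2 the difference was -2.76 and was called (adjusted p = 0.0473), and with 50 added to all intensities it was -1.19 and was not. Its second, dimmer probe had 4.81, 0 and 0 in TRAF3KO cells, against 4.31, 5.42 and 5.12 in control cells, and was highest on control replicate 2. In sum, macrophage markers were low on the arrays on which the brightest probe was low, but not every marker followed. The summed intensity of the 13 monocyte and macrophage markers with a probe was 3177, 2705 and 2180 in TRAF3KO cells, against 5291, 2364 and 6697 in control cells, with control replicate 2 low as for the brightest Nr1h3 probe but not for the second. Of 10 tested markers 2 (C1qc and Lyz2) fell and 1 (Spic) rose, and 7 were not called. In all, 8 of the 10 differences were below 0. Spic was higher on every TRAF3KO array (0.93 ± 0.18), and Adgre1, the brightest of the 10, differed by 0.05 ± 0.18 with overlap. The complement gene C1qb was listed at 0 on TRAF3KO replicates 2 and 3 and on control replicate 2, and the iron exporter gene Slc40a1 on TRAF3KO replicates 2 and 3. The part of these cells in the Nr1h3 values was not tested.

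Few sterol transport genes could be measured. Stard4, a cytosolic sterol carrier, had 11.70, 11.59 and 10.93 in TRAF3KO cells, against 11.42, 11.47 and 11.11 in control cells. Its groups overlapped, with replicate 3 lowest in both, and the difference was 0.07 ± 0.18. Abcg1, a cholesterol exporter, differed by -0.11 ± 0.23, with TRAF3KO arrays at 7.27 to 8.10 and control arrays at 7.74 to 7.89. Abca1, the other main exporter, was listed at 0 on all 6 arrays, as was the desaturase gene Fads2, and both fell outside the filter. The filter lay at log2 3.95 to 3.97, and the dimmest members inside it (Nr1h3, Fasn and Idi1) averaged 6.06, 6.13 and 6.13 over the arrays. Soat1, which esterifies cholesterol, was not analysed here.

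Fatty acid genes measured about as precisely as Hmgcs1 differed less. Acly encodes ATP citrate lyase, which supplies cytosolic acetyl-CoA to both pathways. It had 14.17, 14.24 and 14.17 in TRAF3KO cells, against 14.09, 13.90 and 14.10 in control cells. The groups did not overlap, but the difference of 0.16 ± 0.07 was not called (adjusted p = 0.287). Scd1, which introduces the first double bond into saturated acyl chains, had 13.35, 13.46 and 13.37 in TRAF3KO cells, against 13.44, 13.59 and 13.58 in control cells. Its difference of -0.14 ± 0.07 ran the other way and was not called (adjusted p = 0.348). Elovl5, an elongase of polyunsaturated chains, differed by 0.06 ± 0.06. The upper 95% limits of Acly, Scd1 and Elovl5 were 0.315, 0.01 and 0.20, all below the lower limit of 0.37 for Hmgcs1. Hmgcs1 is the member with the smallest adjusted p, and the other bright called sterol genes were less clearly apart. Fdps and Sqle had lower limits of 0.313 and 0.234, which lie below the upper limit of Acly but above those of Scd1 and Elovl5. Among the 1410 tested genes with a mean log2 intensity of 12 or more, 10.2% were called. That group, formed after the values were seen, holds 3 sterol genes (Hmgcs1, Fdps and Sqle), all called, and these 3 fatty acid genes, none called.

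**Figure D4:**
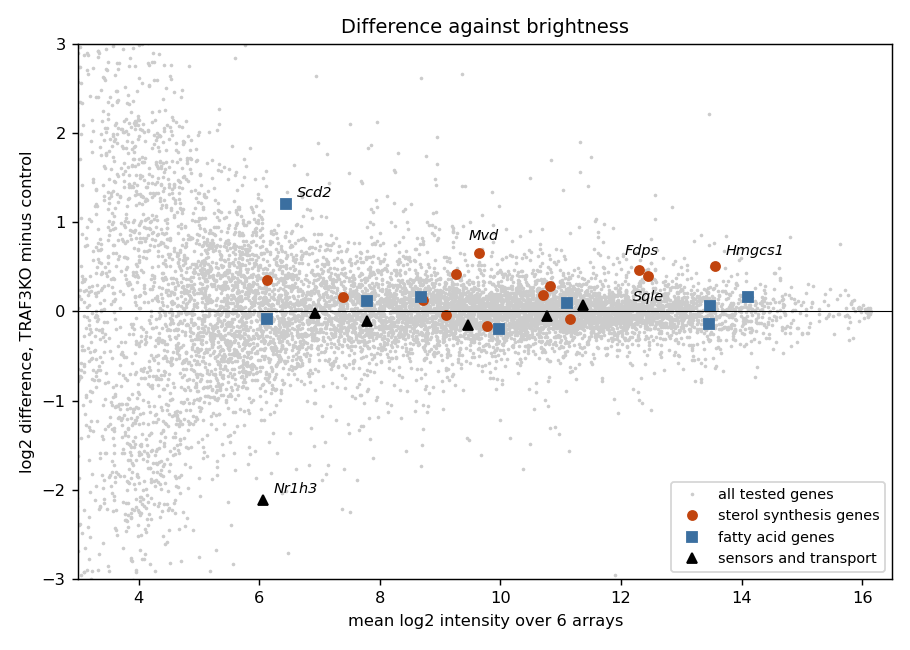
Log2 difference, TRAF3KO minus control, against mean log2 intensity for all 10304 tested genes (grey; those outside the axes are not drawn) and the 28 members. Hmgcs1, Fdps and Sqle lie at 0.51, 0.47 and 0.40 among bright genes, where the scatter is narrow, while Scd2 and Nr1h3 lie among dim genes, where it is wide.

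Dimmer fatty acid genes were less precise. Scd2, a second stearoyl-CoA desaturase gene, had 7.17, 7.20 and 6.77 in TRAF3KO cells, against 4.86, 5.65 and 7.01 in control cells. Control replicate 3 lay within the TRAF3KO range, and the difference of 1.21 ± 0.48 was not called (adjusted p = 0.243). Without control replicate 3 it was 1.79 and was called (adjusted p = 0.04998), the 1 call among the fatty acid genes in any fit run. It was 0.72 without control replicate 1 and 0.70 with 50 added to all intensities, and was not called in either. Fasn, fatty acid synthase, had 6.67, 6.37 and 5.21 in TRAF3KO cells, against 5.62, 5.62 and 7.27 in control cells. Its interval of -1.28 to 1.10 holds a 2-fold change in either direction, so a change of that size is not excluded for this probe. Acss2, which makes acetyl-CoA from acetate, differed by -0.20 ± 0.17, and a dim second probe by -1.79 ± 1.32. Elovl6 and Fads1 differed by 0.12 ± 0.19 and 0.16 ± 0.20. Elovl1, an elongase of saturated chains, had 4 kept probes, with differences from -0.04 to 0.10, and 0 were called. Acaca, acetyl-CoA carboxylase, was not analysed here.

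By array, the median of the 5 mevalonate genes relative to the control mean was 0.46, 0.51 and 0.44 on the TRAF3KO arrays and 0.03, 0.02 and -0.06 on the control arrays. For the 8 genes from squalene onwards it was 0.12, 0.20 and 0.22 on the TRAF3KO arrays and -0.04, 0.03 and -0.03 on the control arrays. Both lists thus stood higher on every TRAF3KO array. The 3 tested genes of fatty acid precursors and chain synthesis gave 0.13, 0.19 and -0.02 on the TRAF3KO arrays and 0.06, -0.27 and 0.14 on the control arrays, and the groups overlapped. The elongases and desaturases gave 0.22, 0.09 and 0.02 on the TRAF3KO arrays and -0.10, 0.07 and 0.05 on the control arrays, which also overlapped. Markers of cycling cells were also higher in sum. Their summed intensity over 8 genes was 11586, 11063 and 10023 in TRAF3KO cells, against 6496, 9402 and 6466 in control cells. Of the 8, Tk1 and Tyms rose, 6 were not called, and 0 were at the floor on any array. Tk1 had the largest difference of the 8 (1.70 ± 0.12), with a mean of 11.69 in TRAF3KO cells against 9.99 in control cells. The higher sum thus rests in large part on Tk1. A difference below 0 was seen for 2 of the 8 (Mcm2 and Pcna). The median of these 8 markers relative to the control mean overlapped between the groups, at 0.70, 0.68 and 0.07 on the TRAF3KO arrays and -0.25, 0.41 and -0.11 on the control arrays. Markers of other cell types also differed. Of 4 tested plasma cell markers Sdc1 fell (-2.22 ± 0.21, adjusted p = 0.000239) and Xbp1 rose (0.48 ± 0.08, adjusted p = 0.00938). Of 5 erythroid markers Car2 fell (-1.03 ± 0.23, adjusted p = 0.033), and all 5 differences were below 0, with a median of -0.99. By array, the median of these 5 was lowest on TRAF3KO replicate 1, and the groups overlapped. It was -1.32, -0.46 and -0.10 relative to the control mean on TRAF3KO arrays, against -0.20, 0.00 and 0.00 on control arrays. Of 5 dendritic cell markers Cst3 fell (-0.62 ± 0.08, adjusted p = 0.00126) and Zbtb46, listed at 0 on the 3 control arrays, rose. Zbtb46 thus passed the filter through the TRAF3KO arrays alone, and its difference is measured against the floor. Of the T cell, NK cell and neutrophil markers tested (5, 3 and 4) 0 were called, with 2, 1 and 0 at an unadjusted p under 0.05. The part of cycling or other cells in the sterol result was not tested.

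**Figure D5:**
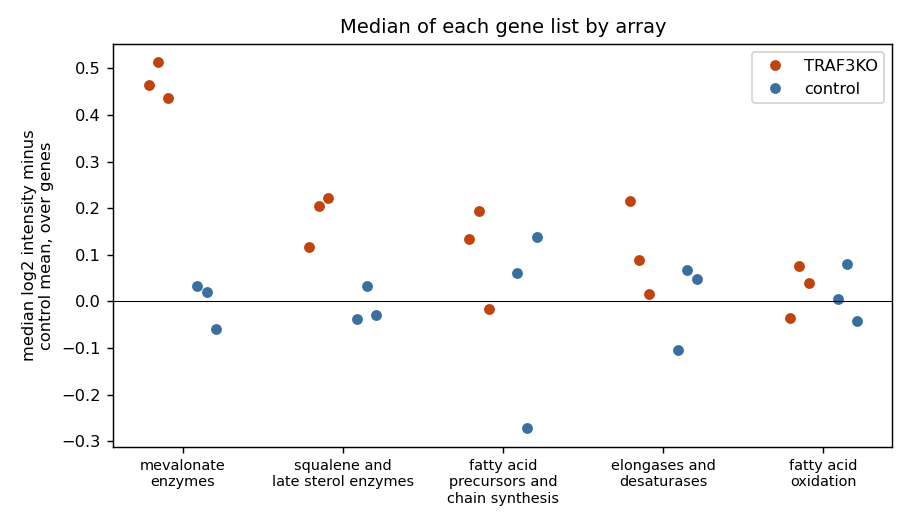
Median over the tested genes of each list of the log2 intensity minus the gene's control mean, for each array; TRAF3KO left of control. The mevalonate genes lie at 0.44 to 0.51 on TRAF3KO arrays and at -0.06 to 0.03 on control arrays, and the points of both fatty acid synthesis lists overlap.

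Other genes of the same pathways gave 1 higher and 1 lower call among 39 tested of 56 listed (5.13%), close to the share of all genes. Mid1ip1, which encodes a protein that promotes acetyl-CoA carboxylase activity, had 10.50, 10.48 and 10.45 in TRAF3KO cells, against 10.02, 10.03 and 10.18 in control cells. The groups did not overlap (0.40 ± 0.09, adjusted p = 0.0386), but the call was lost in all 6 fits that left out an array (adjusted p = 0.0525 to 0.150). Pltp, a phospholipid transfer protein gene and LXR target, had 6.20, 6.39 and 6.56 in TRAF3KO cells, against 8.90, 8.19 and 8.80 in control cells. The groups were far apart, and Pltp fell by 2.25 ± 0.24 on the log2 scale (adjusted p = 0.000491) and was called in all 19 alternatives. Other LXR target genes were not tested as a list. Of those measured, Abcg1 and Srebf1, given above, differed by -0.11 ± 0.23 and -0.02 ± 0.32, with overlap. Mylip, which encodes a ubiquitin ligase and was picked after its values were seen, differed by -0.76 ± 0.20 (adjusted p = 0.0643), with TRAF3KO arrays at 7.15 to 7.59 and control arrays at 7.95 to 8.20. Apoe differed by -0.21 ± 0.13, with overlap, and Lpcat3 by -0.22 ± 0.08, without. Msmo1, the sterol methyl oxidase that acts after Cyp51, had 11.77, 11.91 and 12.06 in TRAF3KO cells, against 11.57, 11.68 and 11.44 in control cells. Its difference of 0.35 ± 0.10 was not called (adjusted p = 0.0739). Of 14 tested fatty acid oxidation genes 0 were called (1 at an unadjusted p under 0.05), with a median of 0.04. Cpt1a, the gatekeeper of mitochondrial oxidation, was dim, at 4.41, 0 and 0 in TRAF3KO cells against 4.07, 4.55 and 5.25 in control cells, and the groups overlapped.

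The sexes of the mice, inferred from Xist and Y-linked genes because the labels do not give them, were not balanced, with 1 male among 3 TRAF3KO arrays and 2 males among 3 control arrays. With inferred sex as a block, Hmgcs1, Fdps and Sqle were called, while Mvd (difference 0.58, adjusted p = 0.0579) and the X-linked Mid1ip1 (0.42, adjusted p = 0.063) were not.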

How the data were processed

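Each of 6 Illumina bead arrays measured RNA of splenic B cells in 1 colour. The authors deposited log2 intensities of 25697 probes. The submitters' processing notes name BeadStudio 3.2.3 but not what it did, and the sources used here do not state the background correction, the normalisation or the floor. Per array 31.3% to 31.4% of probes lay at the floor of 0, and array medians were within 5.3505 and 5.35755. The number of arrays limits the precision. The platform annotation named 23141 probes, and the other 2556 are unnamed here.

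Values were used as deposited. The 15657 probes that passed the 40th percentile on 3 or more arrays entered a limma fit (version 3.58.1, R 4.3.3) of group alone, through lmFit and eBayes with trend, and p-values were adjusted by Benjamini-Hochberg over all of them. The fit was also run on simulated data with independent normal noise and no floor. These arrays differ from that setting, so the run is no check of the calls. The genes named are all 39 members, each called gene of the lists of other pathway and oxidation genes, and Msmo1 and Cpt1a. Some other pathway genes are not reported here. The called cell type markers and Mylip, Apoe, Lpcat3, Adgre1, C1qb, Cd22, Cd79a, Cd79b, Ms4a1, Mcm2, Pcna and Slc40a1 were picked from the lists after their values were seen. The members and lists were chosen with earlier results of these data known, so their counts are no independent evidence. Replicate numbers are shared by the groups, but same-numbered arrays deviated together only weakly (r = 0.044, 0.0425 and 0.0298 across probes), so they were not treated as pairs. Promoters came from RefSeq for 31 of 39 members, and the called genes Fdps and Sqle had no entry and were not searched.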

Additional observations from a re-analysis of the deposited data

How the results depend on the processing

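The number of called genes among all 10304 was 457, against 114 with no filter on dim probes, 65 with no trend in the variance model and 227 to 382 when 1 array was left out (227 and 287 without control replicates 1 and 3, 282 and 278 without TRAF3KO replicates 1 and 2). The number of sterol synthesis genes called was 4, against 2 with no filter, 0 with no trend and 2 to 4 when 1 array was left out. The number of fatty acid genes called was 0, and 0 to 1 when 1 array was left out. The median difference of the sterol synthesis genes ranged from 0.15 to 0.35 when 1 array was left out, and that of the fatty acid genes from 0.03 to 0.17. The lowest sterol and the highest fatty acid median came from the same fit, without TRAF3KO replicate 3, where the order of the lists turned, and the sterol median was the higher in the other 18 alternatives. With no filter and with no trend, the cause of the lower counts was not tested. With the replicate block, 468 genes, 4 sterol genes and 0 fatty acid genes were called, Nr1h3 was called (adjusted p = 0.0269), Mid1ip1 was not (0.0603), and every array correlated best with the array of its own number. Hmgcs1 and Fdps were called in 18 of 19 alternatives, Sqle in 16 and Mvd in 11. With no trend, adjusted p was 0.0928 for Hmgcs1, 0.111 for Fdps, 0.174 for Sqle and 0.201 for Mvd. The alternatives also included a filter at the 60th percentile, robust eBayes, array weights, quantile normalisation, median centring, offsets of 16 and 50, low values raised to the 40th percentile, the mean of a gene's probes and inferred sex as a block. No called member changed direction in any of them. Dim probes limit what can be detected, since the median SE was 0.93 below a mean log2 intensity of 6 and 0.08 at 12 or more.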
